A study of Mus musculus with 2 samples.

Results

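The chemokines Cxcl14 and Cxcl12 and the receptors Cxcr4 and Ackr3 were followed in mouse mandibular cells of 2 stages. They were taken by symbol, and all 4 were rows of both gene lists, which held 27998 genes at E12.0 and 31053 at E9.5. At E12.0, single cells that had lost membrane Tomato and gained membrane GFP were sorted from the peeled mandibular epithelia of 6 pooled K14Cre;R26mT/mG embryos of 1 litter, in which a K14 promoter drives Cre and so marks surface epithelium. At E9.5, whole mandibular arches of 8 pooled embryos of 1 litter and the same genotype label were dissociated without a sort, so that mesenchyme, endothelium and blood were present as well. No embryo was treated, each stage is 1 droplet library made from 1 pool, and stage, pool, dissection and library cannot be told apart. Cells are not replicates, so the study gives no test between groups. Every interval given here is a 95% interval for counting error only.

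Chemokines are small secreted proteins that guide migrating cells through receptors coupled to inhibitory G proteins. Cxcl12 signals through Cxcr4, and the atypical receptor Ackr3 binds Cxcl12, signals through arrestins and removes the ligand from the extracellular space. Cxcl14 is a conserved chemokine of epithelia such as skin, and its receptor is not settled.

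Cxcl14 (ENSMUSG00000021508) lies at chr13:56288643-56296551 on the minus strand of GRCm38, and Cxcl12 (ENSMUSG00000061353) at chr6:117168535-117181367 on the plus strand. Both ligand genes have up to 4 exons in the GENCODE annotation. Cxcr4 (ENSMUSG00000045382) lies at chr1:128588199-128592293 on the minus strand and Ackr3 (ENSMUSG00000044337) at chr1:90203980-90216751 on the plus strand. No other annotated gene overlaps any of the 4. The 120 bases before each annotated start are given here from RefSeq promoters of build GRCm38.p6, written 5′ to 3′ on the gene's own strand, because levels of the ligands are set below against Tfap2b, which encodes an AP-2 factor. Capitals mark TATAAA on either strand.
Cxcl14: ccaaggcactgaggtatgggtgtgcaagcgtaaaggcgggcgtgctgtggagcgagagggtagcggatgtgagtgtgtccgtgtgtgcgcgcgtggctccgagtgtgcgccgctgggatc
Cxcl12: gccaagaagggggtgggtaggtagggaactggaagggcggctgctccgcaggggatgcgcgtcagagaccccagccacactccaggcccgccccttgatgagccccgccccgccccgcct
Cxcr4: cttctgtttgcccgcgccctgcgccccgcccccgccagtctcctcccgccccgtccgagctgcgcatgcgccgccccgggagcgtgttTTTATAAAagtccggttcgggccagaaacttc
Ackr3: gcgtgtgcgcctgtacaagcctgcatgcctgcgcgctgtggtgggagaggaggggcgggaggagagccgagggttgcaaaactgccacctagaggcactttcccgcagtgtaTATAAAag
The windows are chr13:56296552-56296671, chr6:117168415-117168534, chr1:128592300-128592419 and chr1:90203860-90203979, in that order. Their GC content was 65.0%, 71.7%, 68.3% and 60.8%. The AP-2 motif GCCNNNGGC, a palindrome, was found in the 250 bases before the start of 13.7% of 32851 RefSeq promoters and in none of these 4. TATAAA, searched on both strands, was found in 12.4% of them, and among these 4 before Cxcr4 and Ackr3, while neither ligand gene holds it in this window. These are matches of letters only.

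After removal of cells with under 200 or over 5500 genes or over 10% mitochondrial UMIs, 11355 of 11663 barcodes remained at E12.0 and 12744 of 14293 at E9.5. They held 77936364 and 166191431 UMIs (unique molecular identifiers, 1 per captured transcript), with medians of 6349 and 13460 UMIs per cell. The libraries shared 51 barcode sequences, 44 of them among kept cells. In the E12.0 library all 9 epithelial marker genes were at 10 CPM (UMIs per 1000000 UMIs of the group) or more. None of the 8 mesenchymal, 7 endothelial or 5 immune ones was, but 1 of 4 neural crest and glia genes was, at 40.3 CPM. At E12.0, zones were gated by at least 2 UMIs of marker genes of the study. They were ventral (Gjb2 plus Gjb6, 1713 cells), anterior (Tfap2b without the ventral gate, 3124 cells), dental (Irx1, 554 cells), posterior (Dmrt2, 190 cells) and periderm/suprabasal (Ppl plus Pkp1, whatever other gate was passed, 594 cells). Zone names stand for these gates. In the study Gjb6 maps ventral cells, but Gjb2 maps cells lateral in the anterior mandible. The ventral zone can thus hold both kinds, and in it Gjb2 stood at 361 and Gjb6 at 194 CPM. Anterior plus ventral cells are called aboral, 5117 cells passed no gate, and 47, 13 and 3 cells passed the gates of aboral and dental, aboral and posterior, and dental and posterior zones. In dental and in posterior cells 1 mesenchymal marker gene reached 10 CPM, at 19.6 and 10.3 CPM. At E9.5, 3018 cells were epithelial (Epcam plus Cdh1), 6519 mesenchymal (Twist1, Prrx1 and Pdgfra) and 214 endothelial (Cdh5 plus Pecam1). Of the remaining E9.5 cells, 773 passed several gates and 2220 passed none. Of the matching marker lists, 8 of 9, 7 of 8 and 7 of 7 genes were at 10 CPM or more. These lists include the gate genes, whose presence the gates required, so they are no independent check. In epithelium 2 of 8 mesenchymal genes also reached 10 CPM, and in mesenchyme 2 of 9 epithelial ones. The 5 erythroid genes summed to 282 CPM in epithelium, 552 in mesenchyme and 75.4 in endothelium.

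Cxcl14 was an aboral transcript at E12.0. It reached 2121 CPM in ventral cells (95% interval 2095 to 2146) and 1380.4 in anterior cells (1365 to 1396), against 56.7 in dental (50.04 to 64.0) and 21.3 in posterior cells (14.5 to 30.3). Periderm/suprabasal cells held 458 CPM and cells of no gate 216. The order from ventral to anterior, periderm/suprabasal, dental and posterior had no neighbouring pair whose intervals met. Aboral cells exceeded dental cells 29.1-fold (25.8 to 33.0) and posterior cells 77.3-fold (54.5 to 114). The posterior zone is the Dmrt2 gate, and in the study Dmrt2 marks the posterior-medial cluster. The ratio is therefore not one for the tongue, salivary gland and posterior-lateral epithelium. Ventral cells exceeded anterior cells 1.54-fold (1.51 to 1.56), and dental cells exceeded posterior cells 2.66-fold (1.83 to 3.99). By the rule used across genes, a 2-fold difference of CPM plus 5 among genes at 10 CPM or more in either group, Cxcl14 was higher in aboral than in dental cells, as were 2.52% of 8906 genes. Against posterior cells it was again higher, with 2.36% of 8994 genes. Cells that passed gates of several zones move these ratios. When a cell was counted in every zone whose gate it passed, the log2 ratio of aboral over dental cells fell from 4.86 to 3.68 and that over posterior cells from 6.27 to 3.88. In cells thinned to 4000 UMIs before gating, the ratio over dental cells was 5.72.

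**Figure D1:**
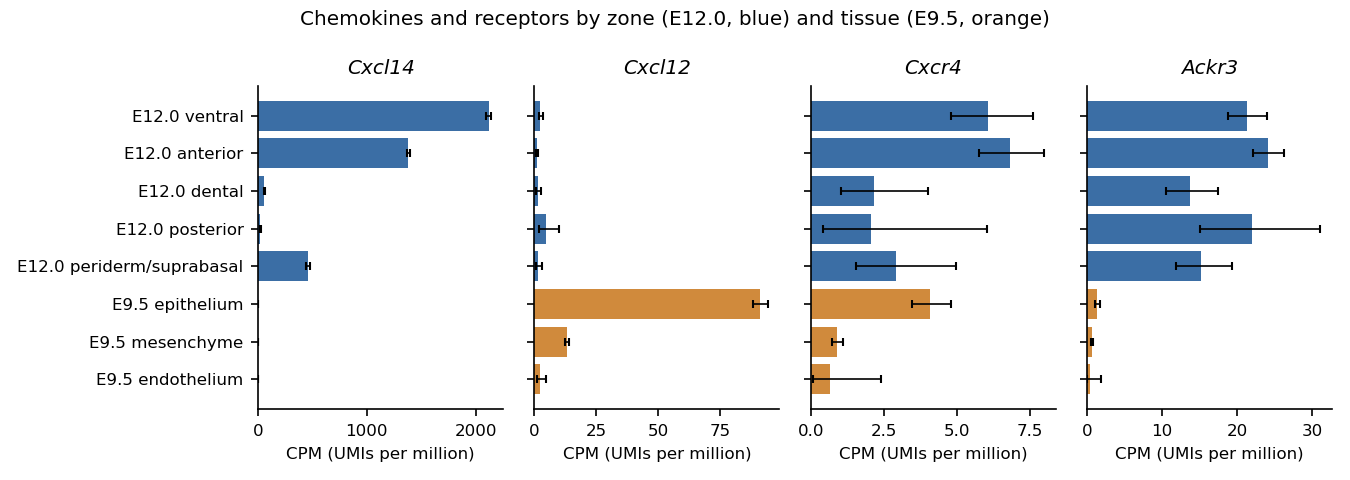
Horizontal axes show the CPM of each gene, on a scale of its own, with 95% Poisson intervals, for 5 zones at E12.0 (blue) and 3 tissues at E9.5 (orange), 1 library per stage. Cxcl14 is highest in ventral cells at 2121 CPM and Cxcl12 in E9.5 epithelium at 91.1 CPM.

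The aboral level of Cxcl14 came from most cells and not from a few. To compare cells of different depth, each was drawn down to 4000 UMIs, which left out 916 shallower cells at E12.0. Of the thinned cells, 95.2% of ventral (94.1 to 96.2) and 85.2% of anterior cells (83.9 to 86.5) held a Cxcl14 UMI. Before thinning these shares were 96.0% and 88.4%, at medians of 6677 and 6498 UMIs. In thinned dental and posterior cells the shares were 13.6% (10.8 to 16.7) and 6.45% (3.38 to 11.0), and before thinning 21.3% and 13.2%, at medians of 7743 and 7175 UMIs. No zone of this sorted epithelium is known to lack Cxcl14, so the posterior share is the lowest level against which the others can be read. The median ventral cell held 8 Cxcl14 UMIs per 4000 (quartiles 5 and 12) and the median anterior cell 5 (quartiles 2 and 9). The ratio of variance to mean was 3.18 in ventral and 3.90 in anterior cells, where random sampling of equal cells gives 1. In posterior cells it was 1.09, with at most 2 UMIs in a thinned cell. Dental cells reached 11, with 5 or more UMIs in 3 of 546 thinned cells.

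**Figure D2:**
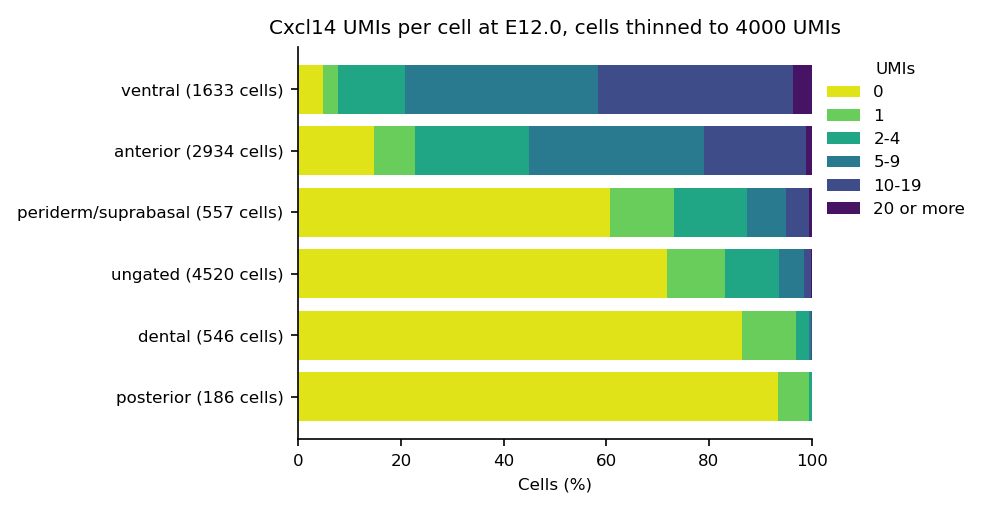
Each bar splits the E12.0 cells of a zone, in percent, by the number of Cxcl14 UMIs per cell after thinning to 4000 UMIs. The share at 0 UMIs is 4.78% in ventral and 93.5% in posterior cells.

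Over cells of all zones together, Cxcl14 was higher with more Tfap2b UMIs. Among thinned cells outside the periderm/suprabasal gate, it stood at 189 CPM in the 5068 cells with no Tfap2b UMI and at 914 CPM with 1 UMI. With 2 and 3 UMIs it stood at 1338 and 1759 CPM, and with 4 or more at 2161 CPM (2129 to 2192). With Irx1, the dental gate gene, it went the other way, from 988 CPM at no UMI to 196 at 1 UMI and 46.2 at 2 UMIs, with no further fall in the few cells above that. With Dmrt2, the posterior gate gene, it fell by a similar path, from 941 CPM to 70.9 at 1 UMI and 39.3 at 2 UMIs. Over all 10439 thinned cells, those with a UMI of both Cxcl14 and Tfap2b were 1.58 times as many as the product of their shares gives (1.55 to 1.62). The same ratio was 1.69 with Gjb2 and 1.76 with Gjb6, the connexin genes of the ventral gate, 0.364 with Irx1 and 0.187 with Dmrt2. With Ppl, a plakin gene of the suprabasal layers, it was 0.818 (0.735 to 0.908). These are descriptions over cells of 1 library. They pool the zones, which these same genes gate, and the relation within a zone was not tested.

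**Figure D3:**
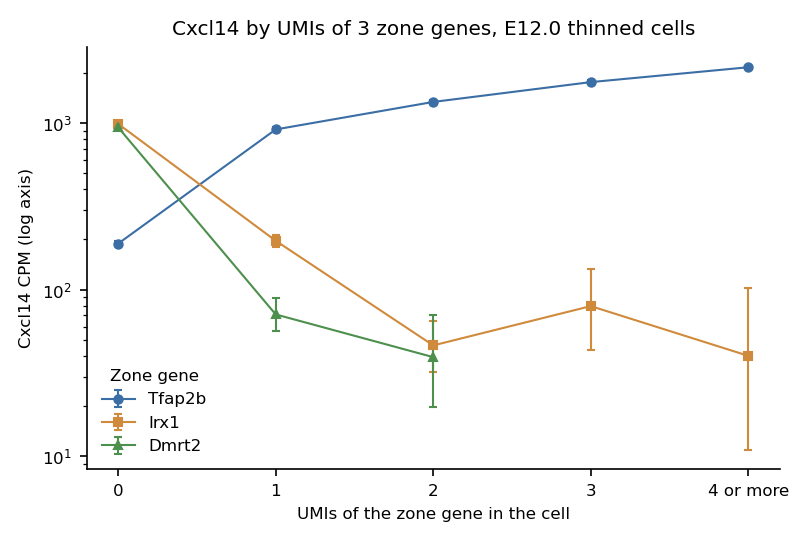
The vertical axis, on a log scale, shows Cxcl14 CPM with 95% Poisson intervals in thinned E12.0 cells, by the number of UMIs of Tfap2b, Irx1 or Dmrt2 in the same cell. It climbs from 189 to 2161 CPM with Tfap2b and is lower in cells with Irx1 or Dmrt2 UMIs than in those with none.

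The same division ran through the periderm/suprabasal cells. Those that also passed the Tfap2b gate (157 cells) held 1163 CPM of Cxcl14 (1107 to 1221), and those with no Tfap2b UMI (387 cells) 103 CPM (91.5 to 116), an 11.3-fold difference (9.93 to 12.8). The Tfap2b-gated periderm/suprabasal level was 0.705 of the aboral level (0.671 to 0.741). Suprabasal cells with the Irx1 gate (68 cells) stood at 118 CPM, and those with no Irx1 UMI at 564. The summed level of 458 CPM thus averages cells of very different levels, and 60.7% of the thinned cells held no Cxcl14 UMI.

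Finer gates, which overlap, placed Cxcl14 within the epithelium. Cells with Gria2, a glutamate receptor gene of ventral puncta, reached 2117 CPM (1983 to 2258, 76 cells). Cells with Timp3 (the study's diastema gene), Slc4a4 plus Rxfp1 (anterodorsal) and Isl1 (medial) held 860.1, 704 and 610.1 CPM. Shh cells, which include the initiation knot, held 313 CPM, and Fgf8 cells, which are lateral, 179 CPM. The lowest values were 159.5 CPM with Foxa1 plus Foxa2 (tongue) and 131 CPM with Col9a1 plus Col14a1 (meant for salivary gland and posterior). Col14a1 stood at 17.7 CPM in anterior and 29.6 in posterior cells, so the last gate need not be confined to the posterior epithelium. These gates kept cells that also passed a zone gate, which the dental and posterior zones left out, so their levels are not set against those zones.

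Aboral cells themselves were not uniform. Of 4567 thinned aboral cells, 512 held no Cxcl14 UMI and 1295 held 10 or more, and the genes that differed most between these cells, by the ratio of CPM plus 5, were listed after their values had been seen. The contrast is in part that of the aboral zones, since 38.0% of ventral cells held 10 to 19 UMIs and 3.55% held 20 or more, against 19.9% and 1.12% of anterior cells, and 4.78% against 14.8% held none. Gjb6, a gate gene of the ventral zone, was higher in the cells with 10 or more UMIs (139 against 13.7 CPM). Cells rich in Cxcl14 were higher in Robo2, an axon guidance receptor (241 against 19.0 CPM), Lmo1 (361 against 37.6) and Msx1, a homeobox gene downstream of BMP (249 against 40.5). Lgr6, an R-spondin receptor, stood at 72.2 against 3.91 CPM. Cells with no Cxcl14 UMI were higher in Barx2 (355 against 12.9 CPM), Pitx1 (365 against 27.8), Sox9 (191 against 14.7) and Foxc1 (82.5 against 1.16), all transcription factor genes. Dlk1 was at 137 against 0.965 CPM and the noncoding RNA Meg3 at 965 against 76.1. Col14a1, a gene of the posterior epithelium, was also higher there, at 58.6 against 0.965 CPM. By zone, Col14a1 stood at 29.6 CPM in posterior, 17.7 in anterior, 5.13 in ventral and 1.09 in dental cells. Foxc1 is named by the study as a key factor of the salivary gland. Whether the cells of the aboral gates with no Cxcl14 UMI lie in the aboral epithelium was not tested.

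At E9.5 Cxcl14 was close to absent. Its 184 UMIs in all kept cells came to 1.11 CPM, with 1.72 CPM in epithelium (1.33 to 2.19, 66 UMIs) and 0.798 in mesenchyme (0.631 to 0.996, 78 UMIs). Endothelium had 0 UMIs, which allows up to 0.997 CPM at a limit of 3 counts. The 50 epithelial cells that already passed the Tfap2b gate at E9.5 held 0 Cxcl14 UMIs, a limit of 4.22 CPM. Within the E9.5 epithelium the level was lower with the Vgll2 gate than with no Vgll2 UMI, 0.619 against 2.91 CPM from 11 and 48 UMIs.

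Against E9.5 epithelium, E12.0 cells of the same Epcam plus Cdh1 gate (8330 cells) held 840 CPM of Cxcl14 (833 to 847), a 488-fold difference (384 to 631). Ackr3 went from 1.36 to 19.8 CPM (14.6-fold, 11.0 to 19.6), and Cxcl12 from 91.1 down to 1.84 CPM (49.6-fold lower, 41.1 to 60.4). Cxcr4 was at 4.09 and 4.35 CPM, a ratio of 1.06 (0.869 to 1.30) that counting error alone could give. Of the 3 members at 10 CPM or more in either library, Cxcl14 and Ackr3 were thus higher at E12.0 by the 2-fold rule, as were 13.4% of 9100 genes, and Cxcl12 was lower, as were 5.05%. So many genes passed between the libraries that passing is by itself common here. The epithelial gate at E9.5 also took 80 cells with the endoderm genes Foxa1 plus Foxa2 and 180 with Pax1, whereas the sort at E12.0 kept GFP-positive cells. The libraries were also counted against gene lists of different size, and with only the 27514 gene identifiers in both lists as denominator the log2 ratio of Cxcl14 was 8.93, as before.

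**Figure D4:**
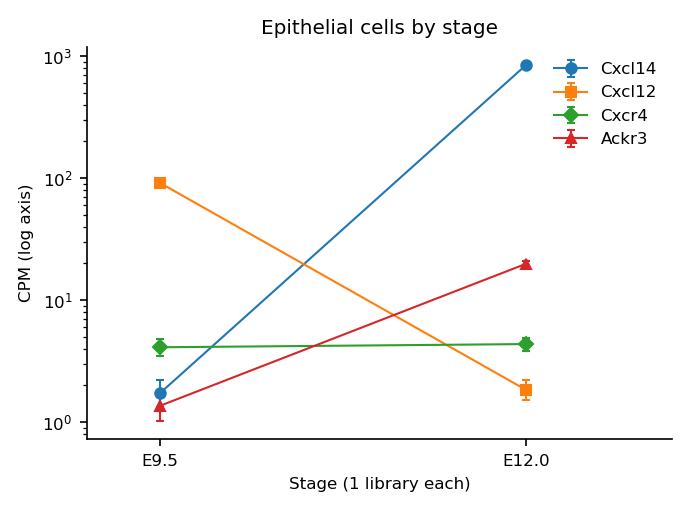
CPM on a log axis, with 95% Poisson intervals, of the 4 genes in cells of the epithelial gate at E9.5 and E12.0, with 1 library per stage. Cxcl14 and Ackr3 are higher and Cxcl12 lower at E12.0, and the Cxcr4 intervals overlap.

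Cxcl12 was an epithelial transcript at E9.5. It stood at 91.1 CPM in epithelium (88.1 to 94.2, 3495 UMIs), 13.1 in mesenchyme (12.4 to 13.8, 1280 UMIs) and 2.33 in endothelium (0.935 to 4.79, 7 UMIs). Epithelium exceeded mesenchyme 6.96-fold (6.52 to 7.42), and mesenchyme exceeded endothelium 5.63-fold (2.73 to 14.0). Cxcl12 was higher in epithelium than in mesenchyme by the 2-fold rule, as were 7.18% of 8301 genes. The other members were under 10 CPM in both tissues. Cells that passed several gates held 53.4 CPM, between epithelium and mesenchyme, and counting them in each gated tissue brought the log2 ratio of mesenchyme over epithelium from -2.80 to -2.20. Gating the tissues by Krt8 plus Krt18, by Prrx2 plus Twist1 and by Kdr plus Egfl7 instead brought the ratio of endothelium over mesenchyme from -2.49 to -1.21.

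Per cell, Cxcl12 was sparse. After thinning to 4000 UMIs, 25.7% of epithelial (24.2 to 27.3), 4.41% of mesenchymal (3.91 to 4.96) and 2.39% of endothelial cells (0.781 to 5.49) held a UMI. At full depth these shares were 48.6%, 13.6% and 3.27%, with medians of 12326, 15519 and 13504 UMIs per cell. The mesenchymal share lay within the interval of the endothelial one, although their CPM differed. Epithelial markers were present in the mesenchymal gate too, with a summed level of 94.7 CPM for the 9 genes against 2168 in epithelium and 52.8 in endothelium. Their part in the mesenchymal Cxcl12 was not tested. Thinned epithelial cells had a ratio of variance to mean of 1.46, and the highest held 7 UMIs. In mesenchyme, 20 cells with 5 or more UMIs (0.307% of cells) held 10.1% of the tissue's Cxcl12 UMIs.

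Epithelial Cxcl12 was graded over marker genes of position. It was highest in the 50 cells with the Tfap2b gate (182 CPM, 152 to 216), against 86.8 in cells with no Tfap2b UMI. Cells with Pax1, a pharyngeal pouch gene, held 123 CPM (110 to 137), and those with Vgll2, the E9.5 oral gene of the study, 106 CPM (102 to 111). Cells with Sfn (periderm) and with Foxa1 plus Foxa2 (endoderm) stood lower, at 50.1 (43.3 to 57.7) and 49.6 CPM (38.0 to 63.8). Against cells with no UMI of the same genes, the Sfn gate was 1.99-fold lower and the Foxa1 plus Foxa2 gate 1.89-fold lower.

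Gates added after the values had been seen set lateral against medial epithelium. Cells with Fgf8, a lateral oral gene, and no Isl1 gate (681 cells) held 140 CPM of Cxcl12 (133 to 148). Cells with Isl1, a medial gene, and no Fgf8 gate (627 cells) held 51.3 CPM (46.5 to 56.4), a 2.74-fold difference (2.45 to 3.06). Cells with Irx1 stood at 148 CPM (137 to 161), and those with Nkx2-5 at 40.8 CPM (35.3 to 47.0). At E12.0, where Cxcl12 was far lower, the Fgf8 gate held 5.09 CPM (2.96 to 8.14, 17 UMIs) and the Isl1 gate 1.03 CPM (0.611 to 1.63, 18 UMIs).

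Thinned epithelial cells with 2 or more Cxcl12 UMIs (212 cells) differed from the 2188 cells with none in other genes as well, again listed after the values were seen. They were higher in Colec12, a scavenger receptor (95.5 against 26.7 CPM), Jag1, a Notch ligand (124 against 42.6), Kit (64.9 against 22.3), Irx1 (67.2 against 25.4) and Eya1 (56.6 against 21.9). They were lower in Tlx1 (22.4 against 80.7), Pitx1 (75.5 against 205), Foxe1 (27.1 against 76.8) and Edn1, the arch signal endothelin 1 (35.4 against 94.4). The highest of these ratios, that of Colec12, was 1.66 on the log2 scale of CPM plus 5. Robo2 was at 3.36 in the aboral Cxcl14 contrast. That contrast set 10 or more UMIs against none, so the 2 ratios are not on equal terms.

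Within mesenchyme, the gate for cranial mesoderm (Tcf21, Msc and Myf5, 245 cells) held 39.5 CPM of Cxcl12 (33.5 to 46.1) and all mesenchyme 13.1. Cells with Hand2, a gene of the ventral arch mesenchyme, held 18.8 CPM (16.1 to 21.9) and those with no Hand2 UMI 12.3 (11.6 to 13.1). The immune gate (Ptprc plus Csf1r) took 0 cells. The 33 thinned mesenchymal cells with 2 or more Cxcl12 UMIs were high in Fst (189 against 6.36 CPM in cells with none), Foxd1 (144 against 4.83) and Tagln (402 against 28.5). Those values rest on 25, 19 and 53 UMIs.

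**Figure D5:**
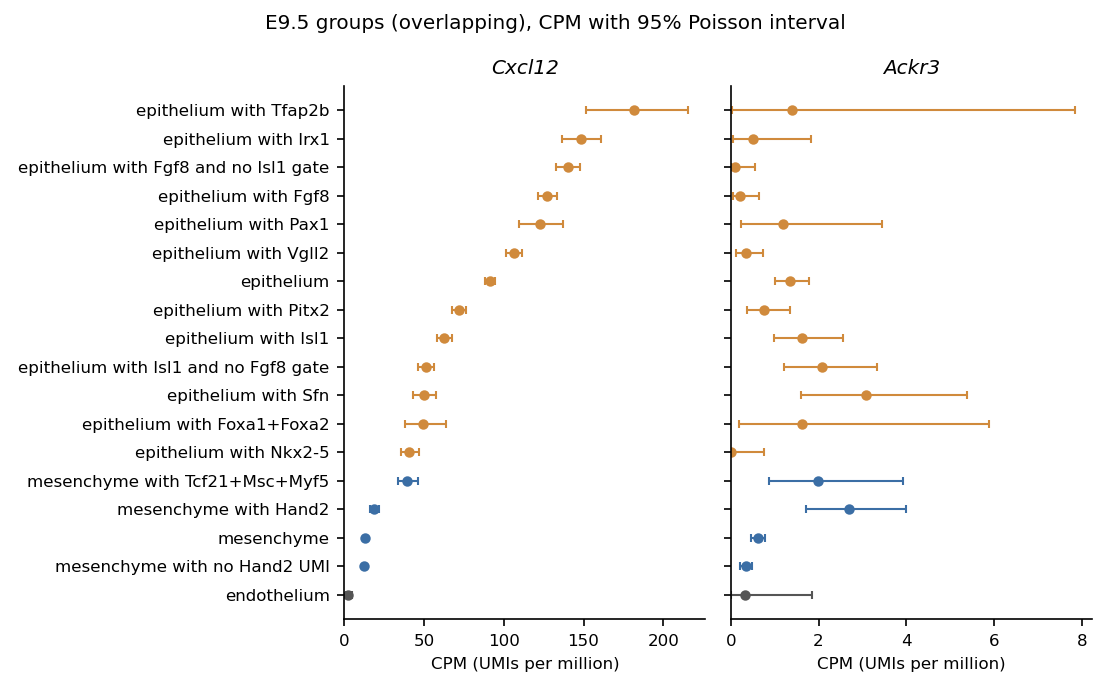
CPM of Cxcl12 and Ackr3, with 95% Poisson intervals, in overlapping groups of E9.5 cells (epithelial in orange, mesenchymal in blue, endothelial in grey). Cxcl12 is highest in epithelial cells with Tfap2b at 182 CPM, whereas Ackr3 stays at or under 3.09 CPM in every group shown.

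At E12.0 Cxcl12 had 143 UMIs in all kept cells (1.83 CPM). Ventral cells held 2.45 CPM (1.66 to 3.47), anterior 0.991 (0.621 to 1.50), dental 1.30 (0.478 to 2.84) and posterior 4.82 (1.94 to 9.92, 7 UMIs). Posterior cells exceeded aboral cells 3.17-fold (1.22 to 6.99), on 7 UMIs, while the posterior and ventral intervals overlap. Ventral cells exceeded anterior cells 2.47-fold (1.38 to 4.48), from 31 and 22 UMIs. The sort removed mesenchyme, so its Cxcl12 at E12.0 was not measured.

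Cxcr4, the signalling receptor of Cxcl12, was low in both libraries. At E12.0 it stood at 6.08 CPM in ventral (4.80 to 7.60) and 6.80 in anterior cells (5.76 to 7.98), a ratio of 0.894 (0.670 to 1.18). Dental cells held 2.17 CPM (1.04 to 4.00, 10 UMIs), posterior 2.06 (0.426 to 6.03, 3 UMIs) and periderm/suprabasal cells 2.91 (1.55 to 4.97). Aboral cells exceeded dental cells 3.01-fold (1.61 to 6.36), at levels under the 10 CPM of the 2-fold rule. The highest finer group was Col9a1 plus Col14a1, at 12.3 CPM (8.70 to 16.9, 38 UMIs in 344 cells). Its interval lies above that of the aboral zone, 6.54 CPM (5.72 to 7.45). Among periderm/suprabasal cells, those with the Tfap2b gate had 11 UMIs (7.76 CPM) and those with no Tfap2b UMI 2 (0.734 CPM), a ratio of 10.6 with a wide interval of 2.31 to 98.1.

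At E9.5 Cxcr4 stood at 4.09 CPM in epithelium (3.48 to 4.79, 157 UMIs) and 0.911 in mesenchyme (0.731 to 1.12, 89 UMIs), so that epithelium was 4.50-fold higher (3.44 to 5.90). Endothelium, in which Cxcr4 is a known gene of sprouting vessels, held 2 UMIs in 214 cells (0.664 CPM, 0.0805 to 2.40). Its ratio to mesenchyme was 0.730 (0.0870 to 2.71), and the sign of the log2 ratio turned under 5 of 11 alternative settings. Mesenchymal cells of the cranial mesoderm gate held 4.99 CPM (3.05 to 7.71, 20 UMIs), above mesenchyme as a whole. Cxcl12 was higher in that gate as well. Over all epithelial gates Cxcr4 ranged from 1.97 CPM with Pax1 to 7.04 CPM with Tfap2b, from 5 UMIs each, and Fgf8 without Isl1 (3.77 CPM) and Isl1 without Fgf8 (3.56 CPM) did not differ beyond counting error, in contrast to Cxcl12.

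Ackr3, the scavenging receptor, was spread over all zones at E12.0. It stood at 21.3 CPM in ventral (18.8 to 24.0), 24.2 in anterior (22.1 to 26.3), 22.0 in posterior (15.1 to 31.1), 15.2 in periderm/suprabasal (11.8 to 19.3) and 13.7 in dental cells (10.5 to 17.5). Aboral cells exceeded dental cells 1.69-fold (1.31 to 2.22), which did not pass the 2-fold rule, and equalled posterior cells within counting error (1.05-fold, 0.738 to 1.55). The lowest finer group was Col9a1 plus Col14a1, at 7.12 CPM (4.46 to 10.8), the gate in which Cxcr4 was highest. Timp3 cells held 26.1 CPM (23.6 to 28.7) and Fgf8 cells 24.2 (19.2 to 30.1). Of thinned aboral cells, 8.76% held an Ackr3 UMI (7.95 to 9.62), with a ratio of variance to mean of 1.02.

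At E9.5 Ackr3 was found in 163 UMIs of all kept cells (0.981 CPM). Epithelium held 1.36 CPM (1.01 to 1.78), mesenchyme 0.614 (0.469 to 0.790) and endothelium 1 UMI. Mesenchyme over epithelium gave a log2 ratio of -1.14 (-1.70 to -0.58), which was -1.73 in thinned cells and -2.62 with the second set of tissue gates. Within mesenchyme the Hand2 gate held 2.68 CPM (1.72 to 3.99, 24 UMIs) and cells with no Hand2 UMI 0.337 (0.222 to 0.491, 27 UMIs), a 7.96-fold difference (4.40 to 14.3). In epithelium, Fgf8 cells without Isl1 held 1 UMI (0.0992 CPM) and Isl1 cells without Fgf8 17 UMIs (2.09 CPM), a ratio of 0.0476 (0.00114 to 0.304). In the same cells Cxcl12 was 2.74-fold higher with Fgf8. The Vgll2 gate was likewise low, with 6 UMIs (0.338 CPM), against 40 UMIs (2.43 CPM) in cells with no Vgll2 UMI.

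Receptors were detected in few cells at these depths. Over all thinned E12.0 cells, Cxcl14 was found with Cxcr4 1.33 times (1.10 to 1.59) and with Ackr3 1.13 times (1.04 to 1.23) as often as the product of their shares gives, which mixes zones of different level. Of thinned aboral cells 88.8% held Cxcl14, as did 89 of the 102 with Cxcr4 and 360 of the 400 with Ackr3, which is 0.983 (0.791 to 1.21) and 1.01 times (0.915 to 1.12) the product of the shares. In thinned E9.5 epithelium, Cxcl12 and Cxcr4 were found together in 10 cells, 0.883 times the product (0.424 to 1.62), and Cxcl12 and Ackr3 in 1 cell, 0.185 times (0.00469 to 1.03). The 4 intervals within aboral cells or E9.5 epithelium include 1. Each is the interval of the joint share over a fixed product, so it cannot show that a pair is unrelated. Over all thinned E12.0 cells, Cxcl14 and Cxcl12 were found together in 22 cells where the product gives 42.4, a ratio of 0.519 (0.325 to 0.785). That ratio too mixes zones of different level, and the pair was not tested within a zone. Cxcr4 and Ackr3 shared 6 cells at E12.0, against 12.5 by the product, and 1 cell at E9.5, and the intervals of both ratios include 1.

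Few other chemokine genes reached 10 CPM. Of 37 further ligand genes, 3 reached 10 CPM in a zone or tissue, 4 lay between 1 and 10 and 30 stayed under 1. Ccl25, a thymic and gut chemokine, was even over all 8 groups (18.5 to 29.3 CPM), and Ccl27a, a skin chemokine, was 12.4 CPM in posterior and 7.38 in E9.5 epithelial cells. Of 20 further receptor genes only Ackr1, an atypical receptor of venous endothelium and red cells, reached 10 CPM, at 28.9 CPM in E9.5 endothelium. Of 16 genes for signalling and handling of these receptors, 11 reached 10 CPM. The inhibitory G protein gene Gnai2 stood at 1195 CPM in E9.5 endothelium and between 200.2 and 381 in the other groups. The arrestin gene Arrb2 was highest in E9.5 epithelium (20.0 CPM) and Arrb1 in endothelium (20.3). The receptor kinase genes Grk2 and Grk6 lay between 26.8 and 63.4 CPM in all groups. The alternative Cxcr4 ligand Mif was at 656 to 896 CPM in the E12.0 zones and 2600.0 to 3500.0 in the E9.5 tissues. Sdc4, a cell surface proteoglycan gene, was highest in anterior cells at 148 CPM, and lowest in E9.5 endothelium at 2.66.

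Over the 5 zones and 3 tissues, the genes whose log2(CPM + 5) followed Cxcl14 most closely were Col12a1 (r = 0.99, a collagen gene), Plppr1 (0.99), Nckap5 (0.99), Htra1 (0.98) and Tfap2c (0.98), out of 5205 genes compared. Those closest to Cxcl12 were Ppil1 (0.98), Car4 (0.98), Has2 (0.97), Ngfrap1 (0.97) and Med19 (0.97). A likeness over 8 groups need not hold over cells, since Car4 was lower in epithelial cells with 2 or more Cxcl12 UMIs than in those with none (20.0 against 65.2 CPM). Cxcr4 was followed by Wnt9b (0.96), Mt2 (0.93), Ephb2 (0.92), Robo2 (0.91) and Lmo1 (0.91). Ackr3, whose groups divide by stage, was followed by Erf, Ppp3cb, Antxr1, Irf2bpl and Eif4g2 (0.99 each). The 8 points share 2 libraries, so stage alone can set such values.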

How the data were processed

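Single cells of 2 libraries were measured by droplet sequencing of 3′ ends. Per the labels, the authors deposited UMI counts per gene and cell, aligned to GRCm38 (mm10) with Cell Ranger. The file headers name version 3.1.0 at E12.0 and 6.1.2 at E9.5, and the submitters' processing notes name version 2.0.0. Raw counts were used as deposited, with the study's filter of 200 to 5500 genes and at most 10% mitochondrial UMIs. Depth was 503 to 21712 UMIs per kept cell at E12.0 and 500 to 40102 at E9.5.

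UMIs were summed over each group and divided by the group's total (CPM), with an exact Poisson interval. Ratios carry an exact conditional interval and shares a Clopper-Pearson interval, all at 95%. PCR copies are removed by UMIs, and the intervals cover counting error only. No test was run, since each stage has 1 library. A level of 0 was bounded by 3 counts. The 2-fold rule used a pseudocount of 5 CPM and a minimum of 10 CPM. Thinning drew UMIs without replacement (seed 1) and left out 916 cells at E12.0 and 1715 at E9.5. Scrublet in scanpy 1.11.5 called 661 and 331 doublets, which were kept. Ratios and calls were tested on simulated data. The named genes are the 4 members, the gate genes, pathway genes at 10 CPM or more, the 5 genes most like each member, and genes named as chosen after their values were seen. The members and lists were chosen with earlier results of these data known. Some of the finer E9.5 groups are not reported here. Gene positions are from GENCODE vM21.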

Additional observations from a re-analysis of the deposited data

How the results depend on the processing

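Of the ratios given above, 10 were recomputed, each under 10 to 12 alternatives. Of 107 values 77 stayed within the interval of the reported one, 25 lay outside it in the same direction and 5 changed sign. The other ratios were not recomputed, among them those between finer gates and the stage ratios of Ackr3 and Cxcl12. All log2 ratios of Cxcl14, Cxcl12 and Ackr3 that were recomputed kept their direction, and the cause of the movements was not tested. The log2 ratio of Cxcl14 in aboral over dental cells (4.86) was 5.21 with gates of 3 UMIs, 3.68 when cells counted in every gate they passed, 5.72 in thinned cells, 5.10 with equal weight per cell, 5.41 without called doublets, 5.20 in cells with Xist and no Y-linked UMIs and 5.21 in cells with Y-linked and no Xist UMIs. Over posterior cells (6.27) it was 3.88 when cells counted in every gate. Ventral over anterior (0.62) was 0.75 and 0.49 with gates of 1 and 3 UMIs, 0.36 with every gate counted, 0.53 thinned, 0.65 without doublets and 0.58 in Xist cells. Cxcl12 in E9.5 mesenchyme over epithelium (-2.80) was -2.66 and -2.92 with gates of 1 and 3 UMIs, -2.20 with every gate counted, -3.14 thinned and -2.61 with the second tissue gates, and in endothelium over mesenchyme (-2.49) it was -1.21 with the second gates. Cxcr4 in endothelium over mesenchyme (-0.45) was 0.88 with gates of 3 UMIs, 0.29 with every gate counted, 1.13 thinned, 0.90 in Y-linked cells and 0.31 with the second gates, from 1 to 6 endothelial UMIs. Cxcr4 in epithelium over mesenchyme (2.17) was 1.73 with gates of 1 UMI and 1.76 with every gate counted. Ackr3 in mesenchyme over epithelium (-1.14) was -1.73 thinned and -2.62 with the second gates. Cxcl14 in E12.0 over E9.5 epithelium (8.93) was 8.55 thinned. Ackr3 in aboral over dental cells lay between 0.62 and 0.86.

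Low counts limit ligands and receptors alike, since E9.5 endothelium held 0 UMIs of Cxcl14, 2 of Cxcr4 and 1 of Ackr3, and E12.0 dental cells 6 of Cxcl12. No library was repeated, so the spread between embryos is unknown.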

Other observations

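Ccl6, a macrophage chemokine gene, had 2395 UMIs in the kept E9.5 cells and 0 at E12.0. It stood at 22.5 CPM in E9.5 mesenchyme, 1.20 in epithelium and 0.332 in endothelium, while the 5 immune marker genes summed to 0.430 CPM in that mesenchyme. Ccl9 had 237 UMIs at E9.5 and 0 at E12.0, and was at 2.20 CPM in mesenchyme. The E12.0 library was sorted epithelium with fewer kept UMIs (77936364 against 166191431), so such counts are not on equal terms.

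Ccr4 had 297 UMIs at E9.5 against 2 at E12.0, with the same limit. At E9.5 it stood at 0.913 CPM in epithelium, 2.14 in mesenchyme and 2.33 in endothelium. Ccl9 and Ccr4 were named after their values had been seen. Rgs2, a regulator of G protein signalling, was at 109 CPM in E9.5 endothelium and at most 18.6 CPM in the other zones and tissues. Cells that passed Dmrt2 together with Tfap2b or Gjb2 plus Gjb6 (13 cells) held 943 CPM of Cxcl14, and those that passed Irx1 with an aboral gate (47 cells) 661 CPM, at medians of 11755 and 13650 UMIs per cell against 6572 in aboral cells. Whether such barcodes hold more than 1 cell was not tested.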
